A study of Mus musculus with 6 samples.

Results

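The genes described here are the immunoglobulin gene segments and constant genes of the mouse, 264 of the 55401 genes in each count table. They are all genes whose biotype in the GENCODE annotation of GRCm38 is an immunoglobulin V, D, J or C gene. RNA sequencing was run on CD4+ T cells that were enriched from mouse spleen with magnetic beads as naive cells and stimulated through CD3 and CD28 for 24 h. The 3 Satb1 cKO libraries came from Satb1 flox/flox CD4-Cre mice, in which Cre is driven by Cd4 regulatory sequences and so is active in T lineage cells that pass a CD4-expressing stage. The 3 control libraries came from mice with the genotype label WT. The labels give neither the ages of the mice, nor whether control mice carried Cre, nor whether each library of a group was made from a different mouse. The p-values therefore reflect the spread between these 6 samples alone, and that spread may be technical.

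Antibodies are made by B cells and by the plasma cells that develop from them. In developing B cells the V, D and J segments of the heavy chain locus (Igh), and the V and J segments of the kappa (Igk) and lambda (Igl) light chain loci, are cut and joined to form 1 variable exon, which is spliced to a constant gene. Ighm and Ighd encode the heavy chains of IgM and IgD, which resting B cells carry. Class switching later replaces them with an IgG, IgE or IgA constant gene. Constant genes can also be transcribed without a joined V segment. T cells do not assemble functional immunoglobulin genes as a rule, so the markers of other cells are given with the results below.

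The 264 genes comprised 218 V, 19 D, 14 J and 13 C genes. The Igh locus held 144 of them (chr12:113254830-116000461), Igk 108 (chr6:67555497-70726966) and Igl 12 (chr16:19061618-19260859), all in GRCm38. At least 1 read was counted on 198 of the genes, and 66 had 0 reads in the 6 libraries. Reads were found in both groups for 87 genes, in Satb1 cKO libraries only for 107 and in control libraries only for 4. All 171 V segments with reads had some in Satb1 cKO libraries, and 72 of them had some in control libraries. Libraries held between 14895389 and 20266626 reads on genes. Levels are given as read counts and as CPM, reads per 1000000 reads after scaling of libraries.

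Gene counts do not show where along a segment its reads fell. The annotated germline ends of the V segments that carried most reads are described here. The last 90 coding bases of each are given, 5′ to 3′ on the coding strand, from the GENCODE M21 transcripts of GRCm38. Capitals mark the last in-frame cysteine codon, which begins the stretch that is joined to D or J. The first 3 are kappa segments (Igkv5-39, chr6:69900424-69900977, minus strand; Igkv14-111, chr6:68256389-68256869, plus strand; Igkv1-117, chr6:68121046-68121827, plus strand). They are followed by 2 heavy chain segments (Ighv1-26, chr12:114788372-114788805, minus strand; Ighv1-80, chr12:115912344-115912776, minus strand) and a lambda segment (Iglv1, chr16:19085017-19085500, minus strand).
Igkv5-39: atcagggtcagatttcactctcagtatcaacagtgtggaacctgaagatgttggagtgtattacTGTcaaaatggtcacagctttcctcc
Igkv14-111: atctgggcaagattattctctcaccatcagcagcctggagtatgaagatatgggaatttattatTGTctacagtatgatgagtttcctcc
Igkv1-117: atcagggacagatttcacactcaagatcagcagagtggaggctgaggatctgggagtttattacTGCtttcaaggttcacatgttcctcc
Ighv1-26: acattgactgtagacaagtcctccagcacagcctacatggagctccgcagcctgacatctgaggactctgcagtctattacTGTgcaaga
Ighv1-80: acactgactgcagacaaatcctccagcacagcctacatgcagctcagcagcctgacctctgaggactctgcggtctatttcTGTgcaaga
Iglv1: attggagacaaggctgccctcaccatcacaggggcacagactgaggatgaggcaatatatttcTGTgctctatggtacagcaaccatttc

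J segments are short, which limits how many reads can be assigned to them. The following are shown whole because they had the most reads among heavy and kappa J segments (Ighj1, chr12:113429781-113429833, minus strand; Ighj4, chr12:113428514-113428567, minus strand; Igkj4, chr6:70723548-70723585, plus strand; Igkj5, chr6:70723886-70723927, plus strand). Capitals mark the bases of the tryptophan or phenylalanine motif that closes the variable loop (tryptophan or phenylalanine, glycine, any residue, glycine). The motif was searched as a pattern of bases on both strands, without regard to reading frame. Its phenylalanine codon was matched as tt and any base, which also admits leucine codons. The pattern was present in 11 of 14 J segments and in 0 of the 218 V segments' last 54 bases. Ighj2, Igkj3 and Iglj3p had no match in their sequences as annotated in GENCODE M21, which were not checked against another source. A match is a description of these letters only.
Ighj1: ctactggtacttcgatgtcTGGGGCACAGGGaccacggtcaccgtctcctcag
Ighj4: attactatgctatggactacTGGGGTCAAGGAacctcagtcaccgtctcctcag
Igkj4: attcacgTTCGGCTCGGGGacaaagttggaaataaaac
Igkj5: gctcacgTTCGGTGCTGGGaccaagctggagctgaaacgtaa

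Satb1 itself stood at 426, 546 and 462 CPM in Satb1 cKO libraries, against 712, 851 and 727 CPM in control libraries. Its log2 fold change was -0.68 (SE 0.087, edgeR quasi-likelihood test, Benjamini-Hochberg adjusted p = 9.7e-05). The count covers the whole gene, including exons outside the deleted part. T cell identity genes (12 of 12 tested, 1 higher and 9 lower) summed to between 2853 and 2962 CPM in Satb1 cKO libraries and between 3891 and 3997 CPM in control libraries, so both groups expressed the T cell markers. Across the whole fit, 13364 genes were tested and the median log2 fold change was 0.003. Of these genes, 21.6% were called higher and 20.7% lower at an adjusted p under 0.05.

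Summed by locus, light chain reads were many times higher in Satb1 cKO libraries while the heavy chain sum, which Ighm dominates, was nearly level. Kappa genes had 620, 1102 and 1237 reads in Satb1 cKO libraries, against 85, 30 and 136 reads in control libraries. Their sum was 56.8 ± 21.7 CPM in Satb1 cKO and 5.004 ± 3.474 CPM in control (SD, n = 3 each), a ratio of 11.3 between means of groups that did not overlap. Lambda genes had 28, 48 and 27 reads in Satb1 cKO libraries, against 3, 3 and 8 reads in control libraries, a ratio of 6.74, and these groups did not overlap either. Heavy chain genes had 5115, 6168 and 6157 reads in Satb1 cKO libraries, against 4635, 3687 and 4453 reads in control libraries. Their sum was 331.1 ± 54.9 CPM in Satb1 cKO and 254.8 ± 30.9 CPM in control, a ratio of 1.30, and here the groups overlapped. Leaving out Ighm and Ighd, the heavy chain genes had 652, 1073 and 1276 reads in Satb1 cKO libraries, against 40, 29 and 53 reads in control libraries, a ratio of 23.5. No test was applied to any of these sums. In bulk libraries, more cells of a type and more RNA per cell cannot be told apart.

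Control replicate 3 held the most light chain reads of its group. Without it the log2 ratio of the kappa sum was 4.19 instead of 3.50, that of the lambda sum 3.48 instead of 2.75 and that of the V segment sum 4.37 instead of 3.67. No other library moved these ratios by more than 1.5 times.

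**Figure D1:**
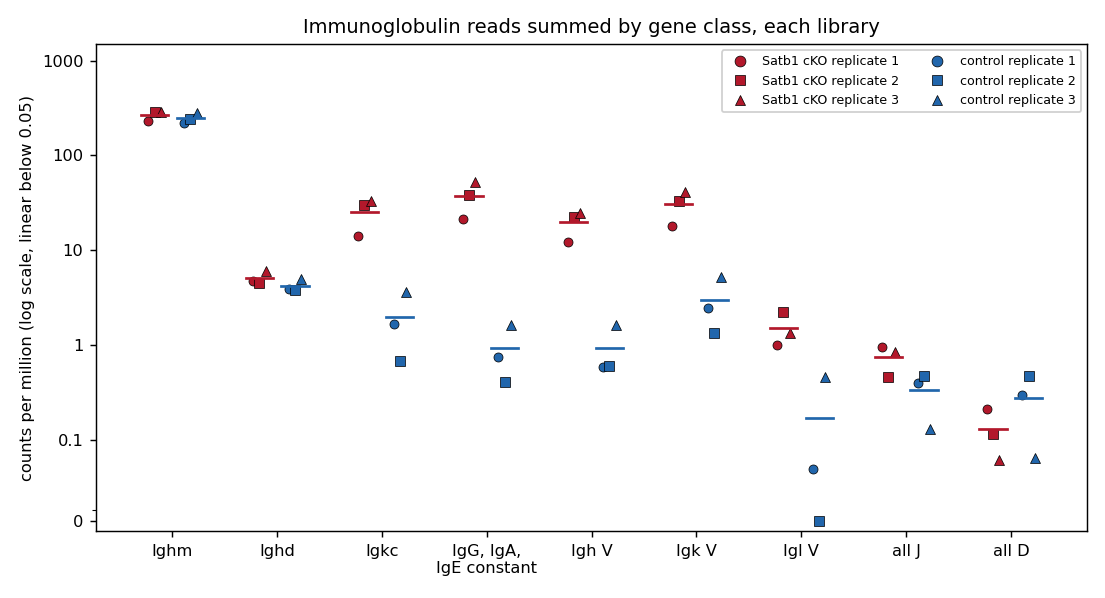
CPM (log scale, linear below 0.05) of immunoglobulin genes, singly or summed by class, in each of the 3 Satb1 cKO libraries (red) and 3 control libraries (blue), with lines at group means. Ighm and Ighd overlap between groups, whereas Igkc, the switched constant genes and the V sums of all 3 loci lie higher in every Satb1 cKO library than in any control library.

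Only 17 of the 264 genes had enough reads to pass the filter of the fit, 8 constant genes and 9 V segments. Of these 17, 15 were higher in Satb1 cKO and 0 were lower at an adjusted p under 0.05 (15 and 0 at an unadjusted p under 0.05, and 15 and 0 with DESeq2). Over all genes tested, 42.3% were called, 21.6% higher and 20.7% lower. Most of the 17 passed the filter through their reads in Satb1 cKO libraries, so the count describes those genes and not the whole set. The exceptions to the calls were Ighm and Ighd.

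Ighm (ENSMUSG00000076617.9, chr12:113418558-113422730, minus strand), the IgM heavy chain gene, had 4372, 5017 and 4781 reads in Satb1 cKO libraries, against 4516, 3601 and 4324 reads in control libraries. The values overlapped, at 268.4 ± 33.6 CPM in Satb1 cKO and 248.1 ± 29.5 CPM in control (SD, n = 3 each). The log2 fold change of 0.11 (SE 0.094, adjusted p = 0.362) did not pass the test. Ighd (chr12:113406604-113416324, minus strand), the IgD heavy chain gene, had 91, 78 and 100 reads in Satb1 cKO libraries, against 79, 57 and 76 reads in control libraries, with a log2 fold change of 0.27 (SE 0.178, adjusted p = 0.242). Ighm was the highest immunoglobulin gene per exon length in both groups, at 142 ± 17.8 CPM per kb in Satb1 cKO and 132 ± 15.6 CPM per kb in control. For each read on Ighd there were 48.0, 64.3 and 47.8 reads on Ighm in Satb1 cKO libraries, and 57.2, 63.2 and 56.9 in control libraries, so this ratio overlapped as well.

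Reads on Ighm far outnumbered heavy chain V reads in control libraries. For each heavy chain V read there were 18.8, 12.8 and 11.7 Ighm reads in Satb1 cKO libraries, against 376, 400.1 and 173 in control libraries. For each read on Igkc there were 16.4, 9.63 and 8.84 Ighm reads in Satb1 cKO libraries, against 133, 360.1 and 77.2 in control libraries. Ighm made up 75.9, 68.6 and 64.4% of all immunoglobulin reads in Satb1 cKO libraries, against 95.6, 96.8 and 94.1% in control libraries. The groups did not overlap in any of these ratios and shares.

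All tested switched constant genes rose. Ighg2b (chr12:113302965-113307933, minus strand), an IgG heavy chain gene, had 140, 195 and 271 reads in Satb1 cKO libraries, against 4, 0 and 7 reads in control libraries. Its log2 fold change was 5.69 (SE 0.491, adjusted p = 5.12e-06). Ighg2c (chr12:113285325-113288932, minus strand), another IgG gene, had 100, 249 and 293 reads in Satb1 cKO libraries, against 3, 0 and 8 reads in control libraries, a log2 fold change of 5.78 (SE 0.642, adjusted p = 3.45e-05). Both genes were lower in Satb1 cKO replicate 1 than in the other Satb1 cKO libraries, and in each case every Satb1 cKO library was above every control library. Ighg1 (chr12:113325240-113330523, minus strand) had 105, 136 and 159 reads in Satb1 cKO libraries, against 3, 1 and 4 reads in control libraries, a log2 fold change of 5.53 (SE 0.375, adjusted p = 7.95e-07). Ighg3 (chr12:113356224-113361232, minus strand) had 30, 51 and 90 reads in Satb1 cKO libraries, against 5, 5 and 5 reads in control libraries, and its log2 fold change was 3.43 (SE 0.518, adjusted p = 0.000309). The 4 IgG genes are related in sequence: Ighg2c and Ighg2b share 88.8% of 1206 aligned bases and the other pairs 79.5 to 82.4%, so some reads of one gene may have been left out or placed on another.

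Igha (chr12:113254830-113260236, minus strand), the IgA heavy chain gene, had 32, 41 and 46 reads in Satb1 cKO libraries, against 0, 0 and 1 read in control libraries. Igha rose by 6.39 on the log2 scale (SE 0.623, adjusted p = 1.27e-05), and the ratio of pooled reads, scaled to library size, was 114 with a counting interval of 19.985 to 4520.7. This interval, like every interval below, is at 95% confidence and covers counting error only. Ighe (chr12:113269260-113273248, minus strand), the IgE gene, had 0, 2 and 3 reads in Satb1 cKO libraries and 0 in each control library, too few for a test. Without control replicate 3, the log2 fold changes were 8.32 for Igha, 7.06 for Ighg2c and 6.59 for Ighg2b, and without control replicate 1 that of Igha was 5.80.

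**Figure D2:**
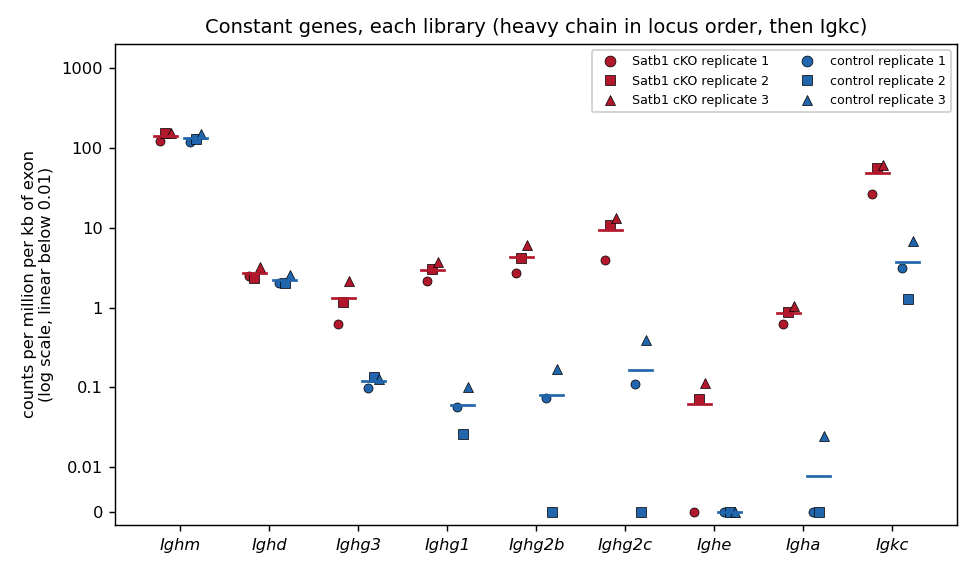
CPM per kb of exon (log scale, linear below 0.01) of the heavy chain constant genes and Igkc in each Satb1 cKO library (red) and control library (blue), with lines at group means. Ighm and Ighd overlap between groups, and Ighg3, Ighg1, Ighg2b, Ighg2c, Igha and Igkc are higher in every Satb1 cKO library than in any control library.

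Switched genes (IgG, IgA and IgE) accounted for 8.36% (95% Wilson interval 7.61 to 9.17), 11.7% (10.9 to 12.5) and 15.01% (14.11 to 15.96) of heavy chain constant reads in Satb1 cKO libraries. In control libraries the shares were 0.325% (0.197 to 0.536), 0.164% (0.075 to 0.357) and 0.565% (0.383 to 0.833). The shares differed among Satb1 cKO libraries beyond their counting error, and the groups did not overlap. Among switched reads in the Satb1 cKO libraries, Ighg2c made up 24.6, 36.9 and 34.0%, Ighg2b 34.4, 28.9 and 31.4%, and Ighg1 25.8, 20.2 and 18.4%. The order thus differed by library: Ighg2b led in Satb1 cKO replicate 1 and Ighg2c in the other Satb1 cKO libraries. Ighg3 made up 7.37, 7.57 and 10.4% of switched reads in Satb1 cKO libraries, against 33.3, 83.3 and 20% in control libraries, where each of these shares rests on 5 reads. These shares of reads are not corrected for gene length.

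Igkc (ENSMUSG00000076609.2, chr6:70726435-70726966, plus strand), the kappa constant gene, had 266, 521 and 541 reads in Satb1 cKO libraries, against 34, 10 and 56 reads in control libraries. It averaged 25.5 ± 10.1 CPM in Satb1 cKO and 1.992 ± 1.504 CPM in control (SD, n = 3 each). Igkc rose by 3.68 on the log2 scale (SE 0.413, adjusted p = 3.67e-05), or by 4.34 without control replicate 3. Among constant genes, Igkc came after Ighm per exon length in both groups, at 47.9 ± 18.9 CPM per kb in Satb1 cKO and 3.74 ± 2.83 CPM per kb in control. The lambda constant genes had few reads. Iglc1 had 5, 3 and 3 reads in Satb1 cKO libraries, against 0, 2 and 1 in control libraries, and Iglc2 had 4, 5 and 2 in Satb1 cKO libraries, against 2, 1 and 0 in control libraries. The ratio of pooled, scaled reads was 3.50 for each, with a counting interval of 0.924 to 19.5 that includes no difference. Summed, the lambda constant genes had 9, 9 and 5 reads in Satb1 cKO libraries, against 2, 3 and 1 in control libraries, a ratio of mean CPM of 3.54 between groups that did not overlap. Iglc3 had 1 read in all, Iglc4 had 0, and Iglc2 and Iglc3 share 96.5% of their aligned bases.

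V segments carried 596, 1009 and 1117 reads in Satb1 cKO libraries, against 63, 29 and 112 reads in control libraries. This was 52.2 ± 18.7 CPM in Satb1 cKO and 4.10 ± 2.79 CPM in control, a ratio of 12.7 between groups that did not overlap. Heavy chain V segments had 232, 393 and 408 reads in Satb1 cKO libraries, against 12, 9 and 25 in control libraries, a ratio of 21.1. Kappa V segments had 345, 577 and 687 reads in Satb1 cKO libraries, against 50, 20 and 80 in control libraries, a ratio of 10.3. Lambda V segments had 19, 39 and 22 reads in Satb1 cKO libraries, against 1, 0 and 7 in control libraries, a ratio of 9.06.

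Many segments contributed to these sums. In Satb1 cKO libraries 84 V segments had reads in all 3 libraries, 41 in 2 and 46 in 1. In control libraries the numbers were 5, 19 and 48. Of the 81 V segments with 10 reads or more, 56 were higher in every Satb1 cKO library than in any control library. Among all 18207 genes with 10 reads or more, 23.3% were. A segment can reach 10 reads through the group in which it is high, so the 56 do not describe all V segments. By mean CPM, 165 V segments were higher in Satb1 cKO and 6 in control.

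The kappa segment Igkv5-39 (ENSMUSG00000076569.3), shown above, had the most reads of any V segment. It had 62, 117 and 115 reads in Satb1 cKO libraries, against 1, 0 and 1 read in control libraries. Its log2 fold change was 6.91 (SE 0.575, adjusted p = 3.91e-06), and the ratio of pooled, scaled reads was 140 with a counting interval of 38.5 to 1163.3. It was the leading kappa segment in each Satb1 cKO library, with 18.0, 20.3 and 16.7% of kappa V reads. In control libraries its share was 2.0%, 0% (0 of 20 reads, which allows up to 15%) and 1.25%. Its closest relative among V segments was Igkv5-45, at 90.8% identity over 346 bases.

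The other 5 kappa segments in the fit also rose. Igkv14-111 had 22, 40 and 63 reads in Satb1 cKO libraries, against 1, 1 and 4 in control libraries (log2 fold change 4.25, SE 0.639, adjusted p = 0.000302). Igkv1-117 had 27, 18 and 39 reads in Satb1 cKO libraries, against 7, 1 and 7 in control libraries (2.40, SE 0.498, adjusted p = 0.0025). It had the smallest change of the 9 called V segments and is 97.5% identical to Igkv1-110, so reads may be split between the pair. Igkv16-104 had 17, 26 and 14 reads in Satb1 cKO libraries, against 0, 2 and 2 in control libraries, with a log2 fold change of 3.64. Igkv6-15 had 15, 21 and 16 reads in Satb1 cKO libraries, against 0, 3 and 1 in control libraries, with a log2 fold change of 3.51. Igkv9-120 had 12, 18 and 18 reads in Satb1 cKO libraries, against 0, 0 and 1 read in control libraries, a pooled ratio of 45.8 with a counting interval of 7.83 to 1845.7. Each of the 5 was higher in every Satb1 cKO library than in any control library.

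The called heavy chain segments were Ighv1-26 and Ighv9-3. Ighv1-26 had 25, 19 and 31 reads in Satb1 cKO libraries, against 0, 3 and 1 in control libraries (log2 fold change 4.04, SE 0.609, adjusted p = 0.000308). It is 96.9% identical to Ighv1-18. Ighv9-3 had 13, 13 and 24 reads in Satb1 cKO libraries, against 1, 0 and 0 in control libraries, a pooled ratio of 47.7 with a counting interval of 8.18 to 1921.0. The lambda segment Iglv1 had 13, 21 and 15 reads in Satb1 cKO libraries, against 0, 0 and 4 in control libraries (3.43, SE 0.745, adjusted p = 0.00334), and it is 97.0% identical to Iglv2.

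With so few control reads, these fold changes moved with single control libraries although none lost its call. Without control replicate 3 the log2 fold change of Iglv1 was 7.04, that of Igkv9-120 7.02 and that of Igkv14-111 5.23. Without control replicate 2, Ighv1-26 stood at 5.33 and Igkv6-15 at 4.81. Without control replicate 1, Ighv9-3 stood at 6.99, Igkv9-120 at 4.49, Ighv1-26 at 3.34, Igkv16-104 at 2.95, Igkv6-15 at 2.82 and Iglv1 at 2.73.

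Several segments with many reads did not pass the filter of the fit, and their values are given without a test. Igkv1-135 had 8, 21 and 40 reads in Satb1 cKO libraries, against 4, 0 and 1 in control libraries. Ighv1-80 had 4, 23 and 35 reads in Satb1 cKO libraries, against 1, 0 and 0 in control libraries. These 2 segments were low in Satb1 cKO replicate 1 and higher in the other Satb1 cKO libraries. Ighv6-3 had 10, 36 and 13 reads in Satb1 cKO libraries, against 0, 0 and 3 in control libraries, and so was highest in Satb1 cKO replicate 2. Ighv8-8 had 2, 20 and 22 reads in Satb1 cKO libraries and 0 in control libraries, and was at least 13.99-fold higher in Satb1 cKO when 3 reads are allowed over the control group. Iglv2 had 6, 13 and 3 reads in Satb1 cKO libraries, against 1, 0 and 2 in control libraries, and Iglv3 had 0, 5 and 4 in Satb1 cKO libraries, against 0, 0 and 1 in control libraries.

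Igkv4-86, named after its values were seen, went the other way, with 3, 2 and 6 reads in Satb1 cKO libraries and 3, 2 and 19 in control libraries. Control replicate 3 held 19 of those reads, where Igkv4-86 made up 23.8% of the kappa V reads.

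**Figure D3:**
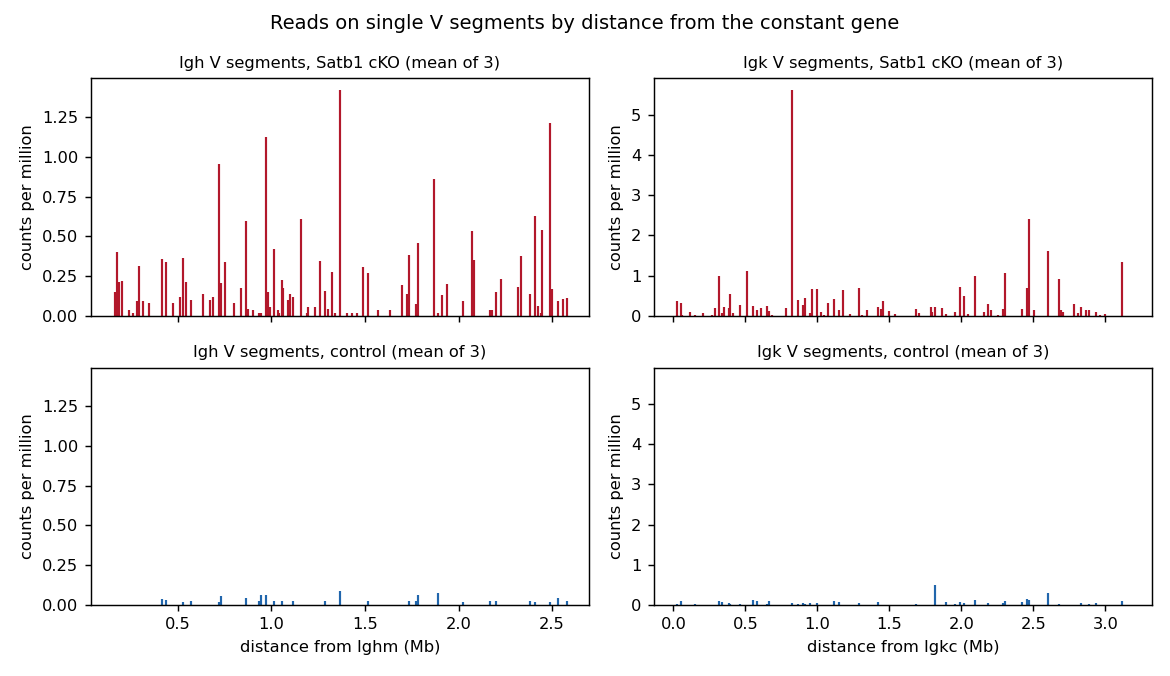
Mean CPM of single V segments (vertical lines, linear axes) against distance in Mb from Ighm for heavy chain segments (left) and from Igkc for kappa segments (right), in Satb1 cKO (upper, red) and control (lower, blue). Reads in Satb1 cKO libraries are spread along both loci, and Igkv5-39 is the tallest kappa line.

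The most used segments differed among the Satb1 cKO libraries. The 10 leading V segments held 38.9, 35.2 and 38.1% of V reads in the Satb1 cKO libraries. Pairs of these libraries shared 4, 6 and 4 of their 10 leading segments, and Igkv5-39 and Igkv14-111 were among the leading 10 in all 3. Over the 171 segments with reads, read counts of pairs of Satb1 cKO libraries had Spearman correlations of 0.392, 0.446 and 0.532 and Pearson correlations of 0.769, 0.807 and 0.848. These are descriptions across segments, which are not independent, and they rest largely on low counts.

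Reads were found on 112, 129 and 139 V segments in Satb1 cKO libraries, against 33, 20 and 48 in control libraries, numbers that were larger in libraries with more V reads. Thinned to 29 V reads per library, the expected number of segments was 22.3, 22.5 and 22.3 in Satb1 cKO libraries, against 20.4, 20 and 20.4 in control libraries. At that equal depth the groups were about 2 segments apart and did not overlap. Control replicate 2 held only 29 V reads, and no counting error was computed for these numbers. Heavy chain segments alone, thinned to 9 reads, gave 7.92, 8.04 and 7.98 segments in Satb1 cKO libraries, against 7.36, 7 and 7.79 in control libraries. Kappa segments thinned to 20 reads gave 13.7, 13.7 and 13.8 in Satb1 cKO libraries, against 13.7, 13.0 and 12.9 in control libraries. The kappa values overlapped between groups, and the heavy chain values did not.

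By family, Ighv1, the largest heavy chain family with 53 segments, had 549 reads in Satb1 cKO libraries and 25 in control libraries. It held 56.9, 46.8 and 57.1% of heavy chain V reads in the Satb1 cKO libraries, against 41.7, 88.9 and 48% in control libraries, and the groups overlapped. Igkv5 held 18.6, 23.7 and 20.96% of kappa V reads in Satb1 cKO libraries (345 reads in all), against 14, 0 and 2.5% in control libraries (9 reads in all, 7 of them in control replicate 1). Igkv4 held 14.2, 12.8 and 12.1% of kappa V reads in Satb1 cKO libraries (206 reads in all), against 18, 35 and 30% in control libraries (40 reads in all). The groups did not overlap for Igkv5 or Igkv4, though the control shares varied widely. Each of these contrasts rests largely on 1 segment described above. Igkv5-39 held 294 of the 345 Igkv5 reads in Satb1 cKO libraries, and Igkv4-86 held 24 of the 40 Igkv4 reads in control libraries. No difference of the families apart from these segments is claimed. Ighv8 with 57 reads (5.52% of heavy chain V reads) and Ighv2 with 40 reads (3.87%) in Satb1 cKO had 0 reads in control. Control libraries held only 46 heavy chain V reads in all, too few to show that families of such shares were absent. The families Ighv11, Ighv15, Ighv16 and Igkv18 had 0 reads in either group.

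Heavy chain V segments made up 38.9, 38.9 and 36.5% of V reads in Satb1 cKO libraries, against 19.0, 31.0 and 22.3% in control libraries, and the groups did not overlap. Among light chain V reads, kappa made up 94.8, 93.7 and 96.9% in Satb1 cKO libraries, against 98.0, 100 and 92.0% in control libraries, which overlapped. Kappa segments lie in both directions along the locus, 38 of 102 on the strand of Igkc. Those 38 carried 34.8, 38.0 and 37.1% of kappa V reads in Satb1 cKO libraries, against 44, 30 and 36.3% in control libraries, again with overlap.

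**Figure D4:**
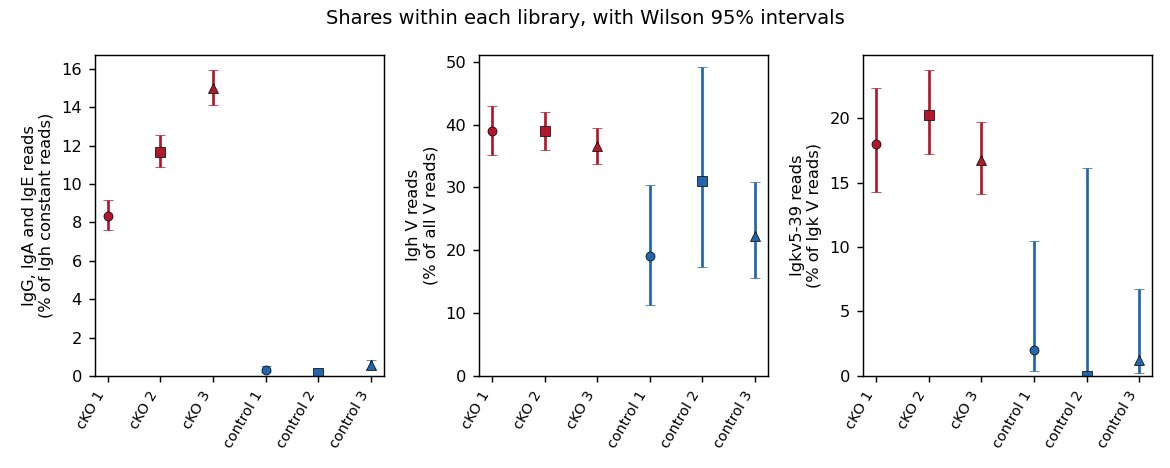
Shares within each library in percent, with 95% Wilson intervals that cover counting error only, for the 3 Satb1 cKO libraries (red) and the 3 control libraries (blue). The switched share of heavy chain constant reads and the heavy chain share of V reads are higher in every Satb1 cKO library than in any control library, and so is the Igkv5-39 share of kappa V reads.

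All but 3 of the 158 annotated V pseudogenes lie on the chromosomes of Igh and Igk, the 3 others being on chromosome 19. The V pseudogenes had 2, 7 and 4 reads in Satb1 cKO libraries and 7, 1 and 0 in control libraries, values that overlapped. The 218 V genes summed to 2722 reads in Satb1 cKO and 204 in control, while the pseudogenes summed to 13 reads in Satb1 cKO and 8 in control. Per exon length this was 0.653 ± 0.234 CPM per kb in Satb1 cKO and 0.051 ± 0.035 CPM per kb in control for V genes, and 0.005 CPM per kb in Satb1 cKO and 0.003 CPM per kb in control for pseudogenes.

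The light chain and switched classes were also compared within libraries. For each Igkc read there were 1.30, 1.11 and 1.27 kappa V reads in Satb1 cKO libraries, against 1.47, 2.00 and 1.43 in control libraries. For each heavy chain V read there were 1.75, 1.72 and 2.11 switched constant reads in Satb1 cKO libraries, against 1.25, 0.667 and 1.00 in control libraries. For each Igkc read there were 1.53, 1.29 and 1.59 switched constant reads in Satb1 cKO libraries, against 0.441, 0.6 and 0.446 in control libraries. The groups did not overlap in these 3 ratios, of which the control values rest on few reads.

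D and J segments had too few reads for any comparison of single genes. J segments summed to 18, 8 and 14 reads in Satb1 cKO libraries, against 8, 7 and 2 in control libraries, and the groups overlapped. Kappa J segments had 9, 4 and 9 of these reads in Satb1 cKO libraries, against 1, 0 and 0 in control libraries, whereas heavy chain J segments had 9, 4 and 5 in Satb1 cKO libraries, against 7, 7 and 2 in control libraries. Ighj1, the J segment with the most reads, had 6, 2 and 1 in Satb1 cKO libraries, against 5, 2 and 0 in control libraries. D segments summed to 4, 2 and 1 reads in Satb1 cKO libraries, against 6, 7 and 1 in control libraries, with overlap. Ighd4-1, the D segment with the most reads, had 4, 0 and 1 in Satb1 cKO libraries, against 3, 3 and 1 in control libraries. The 5 lambda J segments had 0 reads.

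Genes of antibody secretion and of the B cell receptor varied in how they moved. Jchain, whose product links IgM and IgA into polymers and marks antibody-secreting cells, had 115, 174 and 140 reads in Satb1 cKO libraries, against 10, 3 and 24 in control libraries. It rose by 3.46 on the log2 scale (SE 0.405, adjusted p = 5.01e-05), or by 4.44 without control replicate 3. Cd79b, a signalling chain of the B cell receptor, had 71, 68 and 71 reads in Satb1 cKO libraries, against 6, 9 and 8 in control libraries, and rose by 3.10 on the log2 scale (SE 0.275, adjusted p = 6.34e-06). Its partner Cd79a had 36, 36 and 40 reads in Satb1 cKO libraries, against 33, 24 and 37 in control libraries, and did not pass the test (0.18, SE 0.244, adjusted p = 0.586).

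Ms4a1, encoding CD20, had 24, 21 and 22 reads in Satb1 cKO libraries, against 9, 5 and 17 in control libraries (log2 fold change 1.03, SE 0.399, adjusted p = 0.0588). Pax5, a transcription factor of B cell identity, had 25, 11 and 26 reads in Satb1 cKO libraries, against 14, 10 and 26 in control libraries, and Fcer2a, encoding CD23, had 43, 26 and 27 in Satb1 cKO libraries, against 22, 19 and 43 in control libraries. None of these 3 genes passed the test.

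Of the 20 B cell markers on the list, 12 were tested, 3 rose and 1 fell, where 21.6% of all genes tested rose and 20.7% fell. Of the 3, the follicle-homing receptor gene Cxcr5 (log2 fold change 0.54, adjusted p = 0.0457), lost its call in 7 of the alternatives run. The 12 had a median log2 fold change of 0.44. All 20 had reads, and their sum lay between 48.8 and 53.4 CPM in Satb1 cKO libraries and between 50.9 and 64.2 CPM in control libraries. Ralgps2, which fell (-0.76, SE 0.073, adjusted p = 1.12e-05), supplied much of it. Without Ralgps2, left out after its values were seen, the sum was 28.7, 25.6 and 30.1 CPM in Satb1 cKO libraries, against 13.9, 14.9 and 21.5 CPM in control libraries, and the groups did not overlap. The part of B cells in the immunoglobulin values was not tested.

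**Figure D5:**
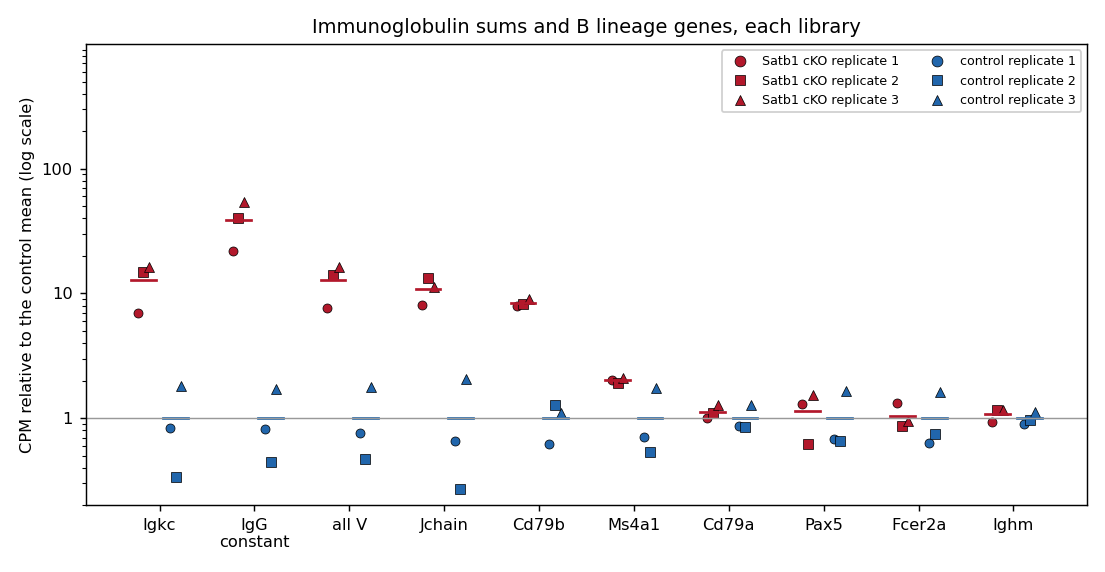
CPM relative to the control mean (log scale) of immunoglobulin genes, Jchain and B cell genes in each Satb1 cKO library (red) and control library (blue), with lines at group means. Igkc, the IgG sum and the V sum stand far above the control mean in Satb1 cKO libraries, with Jchain and Cd79b next, whereas Cd79a, Pax5, Fcer2a and Ighm overlap between groups.

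Of 12 plasma cell and antibody secretion genes, 9 were tested, 5 rose and 1 fell (21.6% and 20.7% over all genes tested). The 9 had a median log2 fold change of 0.60. Besides Jchain, Prdm1, encoding the plasma cell factor BLIMP-1 that activated T cells also express, rose (log2 fold change 1.2, SE 0.176, adjusted p = 0.000255). Eaf2 (1.39, SE 0.292, adjusted p = 0.00276) and Creld2 (0.60, SE 0.064, adjusted p = 2.48e-05) rose too. The sum over the list, which Irf4 dominates, overlapped between groups, at 2221 to 2359 CPM in Satb1 cKO libraries and 2253 to 2382 CPM in control libraries. Mzb1 had 1 read and Tnfrsf17, encoding the plasma cell receptor BCMA, had 2 reads over the 3 Satb1 cKO libraries, and both had 0 in control libraries. Their part in the immunoglobulin values was not tested.

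Of 12 genes of V(D)J recombination and class switching, 9 were tested, 0 rose and 6 fell (21.6% and 20.7% over all genes tested). The 9 had a median log2 fold change of -0.27. Prkdc, a DNA repair kinase used in end joining, fell (-0.64, SE 0.049), as did Msh6 (-0.32), a mismatch repair gene. The recombinase gene Rag1 had 2, 4 and 5 reads in Satb1 cKO libraries, against 3, 1 and 3 in control libraries, and Rag2 had 0 reads. Of the 4 surrogate light chain genes 0 passed the filter.

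Among 12 transcription factors that act at immunoglobulin genes, 11 were tested, 2 rose and 3 fell. The shares to set beside each list in this paragraph are 21.6% higher and 20.7% lower over all genes tested. Irf8, a factor of B and myeloid cells, rose by 2.89 on the log2 scale (SE 0.214, adjusted p = 1.59e-06), and Spi1, encoding PU.1, rose by 1.37 (adjusted p = 0.00366). The octamer binding factor genes Pou2f1 (-0.31) and Pou2f2 (-0.24) fell. Of 12 B cell receptor signalling genes, 10 were tested, 5 rose and 1 fell, among them Plcg2 (1.64, SE 0.123) and Syk (1.57), which rose, and Vav3 (-1.75, SE 0.068), which fell. Of 12 Fc and immunoglobulin receptor genes, 6 were tested, 5 rose and 0 fell, including the inhibitory IgG receptor gene Fcgr2b (1.98).

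Markers of other cells of the spleen moved in the same direction. Beside the counts that follow, 21.6% of all genes tested rose and 20.7% fell. Of 14 myeloid markers 10 were tested and all 10 rose, and their sum was 131.8, 77.5 and 183.4 CPM in Satb1 cKO libraries and between 20.2 and 25.1 CPM in control libraries. Of 10 red cell markers 7 were tested and all 7 rose, and their sum was 310.2, 1863.6 and 1611.8 CPM in Satb1 cKO libraries and between 25.4 and 32.0 CPM in control libraries. Of 10 MHC class II genes, all of them tested, 5 rose and 0 fell, with sums of 128 to 206 CPM in Satb1 cKO and 103 to 125 CPM in control. Among Satb1 cKO libraries, the red cell sum was lowest in replicate 1, as were the kappa and V segment sums. The sums of the plasma cell and T cell identity lists were lowest there too. Those of the myeloid, B cell marker, B cell receptor signalling, Fc receptor and MHC class II lists were lowest in replicate 2. The part of these cells in the immunoglobulin values was not tested.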

How the data were processed

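The authors deposited 1 table of raw read counts per gene for each of 3 Satb1 cKO and 3 control libraries, not normalized. The submitters' processing notes name STAR 2.7.3a, HTSeq 0.12.4 and the mm10 build (GRCm38). The release of the annotation is not given in the sources used here, nor is the strand setting, and without it genes that overlap on opposite strands cannot be told apart. By default HTSeq drops any read that overlaps more than 1 gene or has more than 1 alignment. This lowers counts of near-identical segments and of reads that span a V to J junction. Ambiguous reads made up 5.40 to 5.57% and reads with several alignments 2.92 to 3.16% of each table. Reads on no feature made up 7.32 to 7.61% in Satb1 cKO and 9.18 to 9.50% in control. The 5 summary lines were left out of library sizes and tests.

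Groups came from the sample titles. Biotypes, positions and transcript sequences came from GENCODE M21, which placed 55141 of 55401 genes, and positions are 1-based. The counts were filtered with filterByExpr, scaled by TMM and tested with edgeR 4.0.16 in R 4.3.3 (quasi-likelihood test, group as the only term, Benjamini-Hochberg adjustment over the 13364 genes tested, calls at an adjusted p under 0.05). The biological coefficient of variation was 6.27%. Within groups the counts of library pairs differed by more than sampling noise (chi-square per degree of freedom 2.18 to 7.62). Sums, shares and ratios over immunoglobulin genes are values per library with no test. Shares have 95% Wilson intervals, and group ratios on few reads are ratios of pooled reads scaled to library size, with exact counting intervals, against a floor of 3 reads over the group where control had 0. CPM per kb uses merged exon length. DESeq2 1.42.0, RLE scaling, no filter, a replicate term and leaving out each library were tried as alternatives, and the analysis was tested on simulated data.

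Named genes are Satb1, every called immunoglobulin gene, every constant gene, the 5 V segments with most reads per locus, the D and J segments with most reads, and up to 4 members of smallest p from each of 11 marker and pathway lists, besides Cd79a, Jchain and Rag1. A few genes within this rule are not reported here. Other genes named from the lists, Ighj4, Igkj4, Igkj5 and Igkv4-86 were chosen after their values were seen. The members and lists were chosen with earlier results of these data known.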

Additional observations from a re-analysis of the deposited data

How the results depend on the processing

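The 15 immunoglobulin genes called higher in Satb1 cKO were all called under every alternative run, and 0 were called lower under any of them. Without the filter on low counts, 74 of 198 immunoglobulin genes tested were called higher, against 3053 of all 26132 genes tested. The number lay between 15 and 24 when single libraries were left out, where more immunoglobulin genes could pass the filter. It was 23 of 25 tested without Satb1 cKO replicate 1. Without control replicate 1 it was 24 of 27, and without control replicate 2 or 3 it was 24 of 29. Over all genes, 2396 to 2898 were called higher in these fits, of 13639 to 13885 tested. DESeq2 and RLE scaling each gave 15 of 17 tested, against 2522 and 2884 of all 13364 genes tested. Ighm and Ighd were called under none of the alternatives, with adjusted p from 0.0605 to 0.815 for Ighm and from 0.154 to 0.623 for Ighd. With single libraries left out, the log2 ratios of Satb1 cKO to control sums lay between 0.29 and 0.51 for Igh, 3.13 and 4.19 for Igk, 2.42 and 3.48 for Igl, 0.30 and 0.53 for all constant genes and 3.33 and 4.37 for V segments. Among the other named genes, 9 calls were lost over all alternatives. They include those of Cxcr5 given above and that of Fcer1a (log2 fold change 2.67 in the main fit) with DESeq2 (adjusted p = 0.0707).

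Same-numbered libraries did not deviate together (correlations 0.021, -0.013 and 0.028), and 2 of 6 libraries correlated best with their own number, so the numbers were not taken as pairs. With the replicate block 2861 genes were higher and 2702 lower, against 2885 and 2766 without it, and the immunoglobulin count stayed at 15. Depth limits what can be said of single D, J and lambda constant genes and of V segments under 10 reads, none of which was tested with the filter on low counts.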
